A study of Mus musculus with 2 samples.

Results

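Interleukins are secreted signalling proteins of immune and stromal cells, and each acts through receptor chains on the surface of its target cells. Many of these chains are shared, so that a ligand is paired with a chain of its own and a common chain, and soluble antagonists and decoy receptors bind without passing on a signal. In bone and its marrow, interleukins are known to act on blood cell formation, on inflammation and on the balance of osteoblasts and osteoclasts. The genes described here are all those whose probe sets carry a single gene symbol that begins with Il and a digit, 93 probe sets for 66 genes among 22690 probe sets in all. They were chosen by name, not by their values, though earlier results of these data were known. By known function 31 are ligands, 31 are receptor chains, 3 are soluble antagonists and 1, Il4i1, is an enzyme that is named after interleukin-4 and is neither ligand nor receptor.

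Total RNA was measured from mouse femur on 1 array for an allograft sample and 1 array for an autograft sample. Tissue transferred between individuals of a species is an allograft, and tissue transferred within an individual is an autograft. The labels name the strain c57Bl/6 for both samples and give no treatment, age, time after grafting or number of animals, and they do not say whether the strain is that of the donor or the recipient. Each value is the intensity of a probe set, a group of short oligonucleotides read together for a transcript. With 1 array per graft type no test between the samples was possible and no difference below has a replicate check, and precision is limited by this number of arrays. In whole tissue, fewer cells of a type and less RNA per cell cannot be told apart.

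The 2% trimmed mean intensity came to 500.2 for the allograft and 500.1 for the autograft. A value at or above 175.2, the median intensity of all non-control probe sets, is called above the floor. This floor is a convention and not a measured detection limit. Values below it were set to it before a log2 ratio of allograft over autograft was taken. The femur label was checked against 8 bone genes, among them Col1a1, Alpl and Ctsk, and all 8 exceeded the floor on each array. These genes summed to 41540 in the allograft and 29141 in the autograft, with log2 ratios that ran from -1.25 for Alpl to 2.70 for Col1a1, and the part of this difference in the interleukin values was not tested. The beta-actin controls gave a 3' over 5' ratio, a measure of RNA quality, of 1.77 (allograft) and 1.19 (autograft), and the Gapdh controls gave 0.194 and 0.0349, so the controls differed between the arrays and from each other. The part of RNA quality in the results below was not tested. Where 1925 genes had a pair of bright probe sets, the log2 ratios within the pair differed with an SD of 0.44, which corresponds to 0.31 per probe set. This spread comes from the same pair of arrays and does not measure variation between animals, grafts or repeated arrays. A ratio beyond it is therefore not shown to exceed such variation.

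Most interleukin genes were below the floor in both samples. Of the 66 genes 23 were above it on at least 1 array, or 34.8%, against 63.2% of all 12393 genes with a single symbol. Of these 23 genes, 17 exceeded the floor in both samples, 1 in the allograft alone, against 2.89% of all genes above the floor, and 5 in the autograft alone, against 6.46%. Counted by probe set, 26 of 93 were above the floor on at least 1 array (27.96%), against 54% of all probe sets with a single symbol. None of the 23 genes was 2-fold apart between the arrays, where 0.868% of the 7833 genes above the floor were higher in the allograft by 2-fold or more and 0.753% were lower by as much. With shares this low in all genes, 0 of 23 does not set the interleukin genes apart. Their log2 ratios ran from -0.43 for Il4i1 to 0.69 for Il33, with a median of -0.0058, against -0.076 for all genes. That median is the ratio of Il1f6, whose allograft value was set to the floor. Over the 17 genes above the floor in both samples the median was 0.098, against -0.068 for all genes above it in both. The central 95% of all genes spanned -0.79 to 0.70, so all 23 interleukin genes lay within it.

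**Figure D1:**
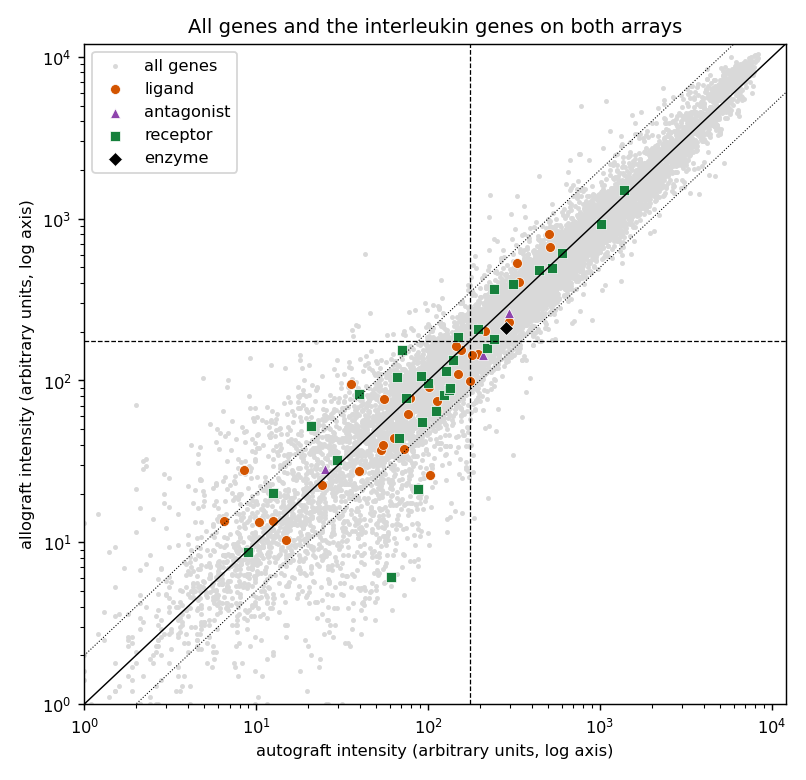
Intensity on the allograft array (vertical) against the autograft array (horizontal), both in arbitrary units on log axes, for all genes in grey (values under 1 drawn at 1) and the 66 interleukin genes coloured by role. Dashed lines mark the floor of 175.2, the solid line equal intensity and dotted lines a 2-fold difference; most interleukin genes lie below the floor on both arrays, and none above it on either array is 2-fold apart once values are set to the floor.

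Of the 31 ligand genes 9 were above the floor on at least 1 array (29.0%, against 63.2% of all genes), and 6 of these 9 belong to the interleukin-1 family. This family includes alarm signals that are released from damaged or activated cells. These are 6 of its 8 ligand genes, a share near the 63.2% of all genes, and Il1f6 and Il1f10 among them passed in the autograft alone and only just. Of the other 23 ligand genes 3 were above the floor. Il33, a nuclear protein of stromal, endothelial and barrier cells that acts as an alarm signal when released, read 531 in the allograft and 329 in the autograft, a log2 ratio of 0.69. Il18, an inducer of interferon-gamma that is cut to its active form by caspase-1, read 808 in the allograft and 501 in the autograft, also 0.69. Both were higher in the allograft by about 1.61-fold. Il1b, the main inflammatory interleukin of macrophages and neutrophils, read 672 in the allograft and 512 in the autograft (0.39), which is the same direction at a smaller size.

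The promoter windows of Il33, Il18 and the receptor gene Il4ra are shown because these 3 genes had the highest log2 ratios among the interleukin genes, 0.69, 0.69 and 0.61. Each window is the 250 bases before a RefSeq start in build GRCm38.p6, written 5′ to 3′, and Il33 has a pair of starts. Capitals mark matches to motifs searched on both strands.
Il33 start A, chr19:29924863-29925112, plus strand: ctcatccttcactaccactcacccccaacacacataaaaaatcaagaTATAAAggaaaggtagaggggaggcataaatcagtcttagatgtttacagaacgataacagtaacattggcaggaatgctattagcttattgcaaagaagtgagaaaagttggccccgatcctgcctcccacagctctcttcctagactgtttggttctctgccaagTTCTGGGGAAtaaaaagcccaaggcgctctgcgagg
Il33 start B, chr19:29945540-29945789, plus strand: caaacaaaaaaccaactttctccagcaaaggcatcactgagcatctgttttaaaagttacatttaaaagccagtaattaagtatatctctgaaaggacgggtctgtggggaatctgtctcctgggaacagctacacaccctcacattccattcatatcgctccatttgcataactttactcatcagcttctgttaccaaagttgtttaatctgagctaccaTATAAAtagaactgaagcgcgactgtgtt
Il18, chr9:50554450-50554699, plus strand: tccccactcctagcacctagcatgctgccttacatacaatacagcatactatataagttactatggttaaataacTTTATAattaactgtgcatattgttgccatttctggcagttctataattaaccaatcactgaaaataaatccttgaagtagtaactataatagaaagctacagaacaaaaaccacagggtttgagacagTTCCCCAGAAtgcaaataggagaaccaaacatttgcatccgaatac
Il4ra, chr7:125552021-125552270, plus strand: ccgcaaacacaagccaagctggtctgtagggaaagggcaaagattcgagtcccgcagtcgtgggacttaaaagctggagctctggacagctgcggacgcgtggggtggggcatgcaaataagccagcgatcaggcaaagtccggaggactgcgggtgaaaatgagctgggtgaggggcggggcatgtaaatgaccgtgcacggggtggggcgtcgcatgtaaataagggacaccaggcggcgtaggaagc
The motifs were GGG and TTTCC with 2 bases between them (NF-kB), TTC and GAA with 3 bases between them (STAT), TTC and GAA with 4 bases between them (the spacing that STAT6 prefers, a factor used by interleukin-4) and TATAAA (the TATA box), and no match overlapped another. Il33 start A and Il18 each held 1 match to the STAT6 motif, which begins 36 bases before the start in Il33 and 46 bases before it in Il18, and 5.85% of 32851 such windows hold that motif. Il33 start A, Il33 start B and Il18 each held 1 TATAAA on one strand or the other, as 12.4% of windows do. These matches begin 203 bases before the start in Il33 start A, 29 in Il33 start B and 175 in Il18, where the match is on the opposite strand. The Il4ra window held none of the 4 motifs. The NF-kB and STAT motifs had no match in these windows, and they occur in 1.41% and 7.02% of all windows. A match describes letters only and is not a measured binding site.

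The epithelial branch of the interleukin-1 family lay the other way or at the floor. Il1f9, also called Il36g, read 230 in the allograft and 296 in the autograft (log2 ratio -0.36). Il1f10 read 143.3 in the allograft and 178.9 in the autograft, and Il1f6, also called Il36a, read 98.8 and 175.9. Both were above the floor in the autograft alone, so that their ratios against the floor, -0.030 and -0.0058, are close to 0. Il1f8, also called Il36b, read 163.9 in the allograft and 145.1 in the autograft, and Il1a read 95.1 and 35.6, so both genes were below the floor on both arrays.

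Of the other ligands, Il16, which is cut from a larger precursor and attracts CD4-bearing cells, read 406 in the allograft and 339 in the autograft (0.26). Il20, a member of the interleukin-10 family known from skin, read 203 in the allograft and 213.5 in the autograft (-0.071). Il15, which maintains natural killer and memory T cells, read 145.3 in the allograft and 195.9 in the autograft, so it was at least 1.12-fold higher in the autograft. The median log2 ratio of the 9 ligand genes above the floor was -0.0058, with 4 above 0 and 5 below, against 40.4% of all genes above 0. That median is the ratio of Il1f6, whose allograft value was set to the floor. Over the 6 ligand genes above the floor on both arrays the median was 0.33, against -0.068 for all genes above it on both. The sign of the ligand median was not settled, since it was 0.36 after quantile normalization and -0.14 with a 25th percentile floor. The ratios of Il20, Il1f6 and Il1f10 also changed sign under at least 1 alternative.

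The remaining 22 ligand genes were below the floor on both arrays, with readings of 10.4 to 163.9 in the allograft and 6.5 to 154.9 in the autograft. They were Il1a, Il1f8, Il2, Il3, Il4, Il5, Il6, Il7, Il9, Il10, Il11, Il12a, Il12b, Il13, Il17a, Il17b, Il17d, Il21, Il23a, Il24, Il25 and Il34. The list includes the products of helper T cells, such as Il2, Il4 and Il17a, and Il6, which read 77.7 in the allograft and 78.2 in the autograft. T cell markers were also low: 8 of 10 listed markers had a probe set, and 0 of the 8 were above the floor, against 63.2% of all genes. The intensities of these 8 markers summed to 457 in the allograft and 720.1 in the autograft, with none at 0. Values this dim give no measure of a difference, and a low reading does not show that a transcript is absent.

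**Figure D2:**
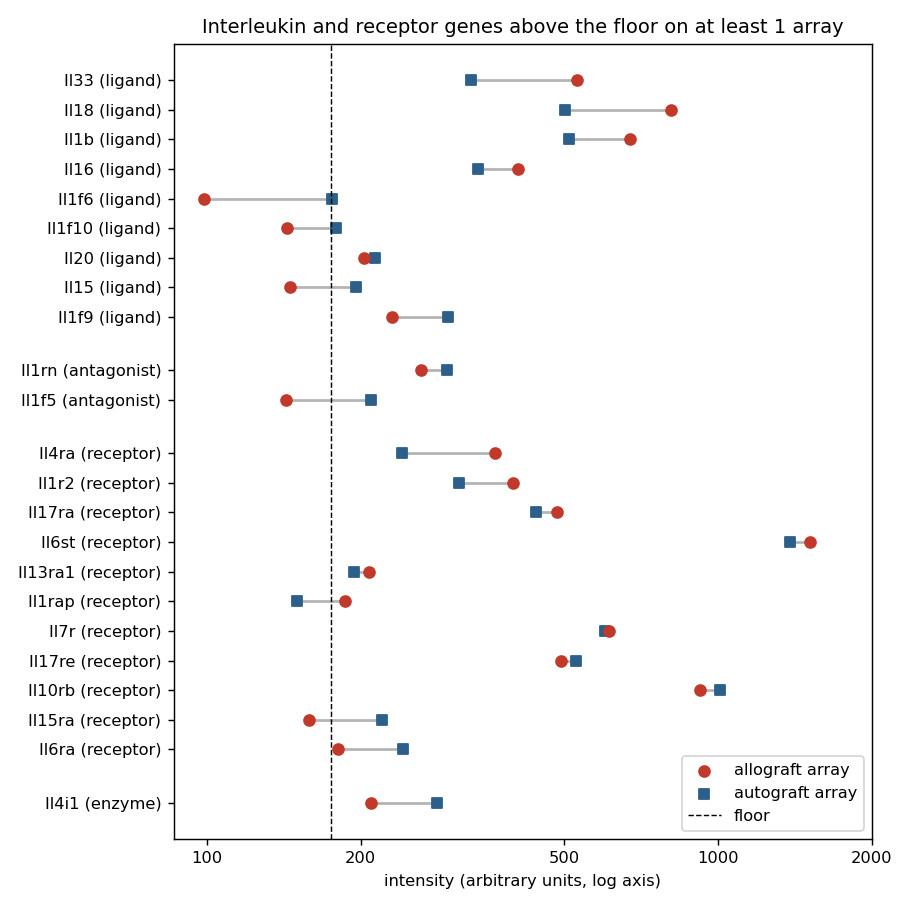
Intensity in arbitrary units on a log axis for the 23 interleukin genes that exceeded the floor in either sample, grouped by role and ordered by log2 ratio, with a circle for the allograft array, a square for the autograft array and a dashed line at the floor of 175.2. Il33, Il18 and Il4ra show the widest gaps with the allograft value higher, and 5 genes cross the floor with the autograft value higher.

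Of the 3 soluble antagonists, Il1rn, which blocks the interleukin-1 receptor, read 262 in the allograft and 295 in the autograft (log2 ratio -0.17). Its other probe sets read 241.7 in the allograft and 232.5 in the autograft, and 26 and 30.7. Il1f5, the antagonist of the interleukin-36 receptor, was above the floor in the autograft alone, with 142.8 in the allograft and 209.4 in the autograft. Il18bp, which binds and neutralises interleukin-18, read 28.3 in the allograft and 25 in the autograft. The ratio of Il1rn is within the spread of 0.31 per probe set, and its second probe set stood at 0.056. Il4i1, a secreted amino acid oxidase, read 210 in the allograft and 282 in the autograft (-0.43).

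Receptor chains above the floor included several that are shared between ligands. Of the 31 receptor genes 11 were above the floor on at least 1 array (35.5%, against 63.2% of all genes), 9 of them on both. Il6st, which encodes gp130, the common chain of the interleukin-6 family, read 1512 in the allograft and 1386.5 in the autograft (log2 ratio 0.13). Il10rb, shared by the interleukin-10 family and type III interferons, read 923.5 in the allograft and 1009.9 in the autograft (-0.13). Il7r, the receptor of lymphoid progenitors for interleukin-7, read 613 in the allograft and 602.5 in the autograft (0.024), a sign that turned under 1 alternative. These 3 chains differed between the arrays by less than the spread of 0.31 per probe set.

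Il4ra, the chain common to the receptors for interleukin-4 and interleukin-13, whose promoter window is given above, had the highest receptor ratio, at 0.61. It read 367 in the allograft and 240 in the autograft, 1.52-fold higher in the allograft. Its other probe sets were below the floor on both arrays, at 63.5 in the allograft and 38.0 in the autograft, and at 58.9 and 68.0, so the difference rests on 1 probe set. It is of a kind marked as able to match more than a single transcript, and all 3 probe sets of Il4ra are of that kind, so it had no value without them. Il13ra1, the partner of Il4ra, read 208 in the allograft and 194 in the autograft (0.098). A second of its 5 probe sets read 180.2 in the allograft and 179.8 in the autograft, and the other 3 were below the floor.

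In the interleukin-1 receptor group, Il1r2, a decoy that binds interleukin-1 without signalling, read 396 in the allograft and 311 in the autograft (0.35). Il1rap, the accessory chain that the signalling receptors need, read 186.7 in the allograft and 150.0 in the autograft, above the floor in the allograft alone. Il1r1, the signalling receptor itself, read 153.7 in the allograft and 70.2 in the autograft, below the floor on both arrays. With the floor at the 25th percentile its log2 ratio was 1.13. The interleukin-18 receptor chains were below it too, with Il18r1 at 106.1 in the allograft and 91.5 in the autograft, and Il18rap at 89.5 and 134.3.

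In the interleukin-17 group, Il17ra, the common chain, read 484 in the allograft and 441 in the autograft (0.13). Il17re, the chain for interleukin-17C, read 493 in the allograft and 529 in the autograft (-0.10). A second probe set of Il17re read 156.9 in the allograft and 326.6 in the autograft, at least 1.86-fold higher in the autograft, so the probe sets of this gene disagreed in size. The sign by the first probe set turned under 1 alternative. Il6ra, the chain that binds interleukin-6, read 181 in the allograft and 241.5 in the autograft (-0.42), the lowest ratio among receptors. Il15ra, which presents interleukin-15 to neighbouring cells, read 158.5 in the allograft and 220.5 in the autograft, at least 1.26-fold higher in the autograft.

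Over the 11 receptor genes above the floor the median log2 ratio was 0.092, against -0.076 for all genes. Of the 11, 7 were above 0 and 4 below, where 40.4% of all genes were above 0. The receptor median was -0.055 with a 25th percentile floor and -0.13 with the dimmest probe set of each gene. The other 20 receptor genes read 6.1 to 153.7 in the allograft and 9.0 to 139.8 in the autograft. They were Il1r1, Il1rapl2, Il1rl2, Il2ra, Il2rb, Il3ra, Il5ra, Il9r, Il10ra, Il12rb1, Il12rb2, Il13ra2, Il17rb, Il17rc, Il17rd, Il18r1, Il18rap, Il21r, Il27ra and Il31ra. Set by ligand, the ligand genes Il4, Il6, Il7, Il13 and Il17a read below the floor while at least 1 chain of each receptor was above it. Both interleukin-15 and its own chain read above the floor in the autograft alone. For interleukin-18 the reverse held, with the ligand above the floor and both receptor chains below it on both arrays. The receptor genes Il2rg and Il1rl1 are not among the 66 genes, so this account by ligand is not complete.

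**Figure D3:**
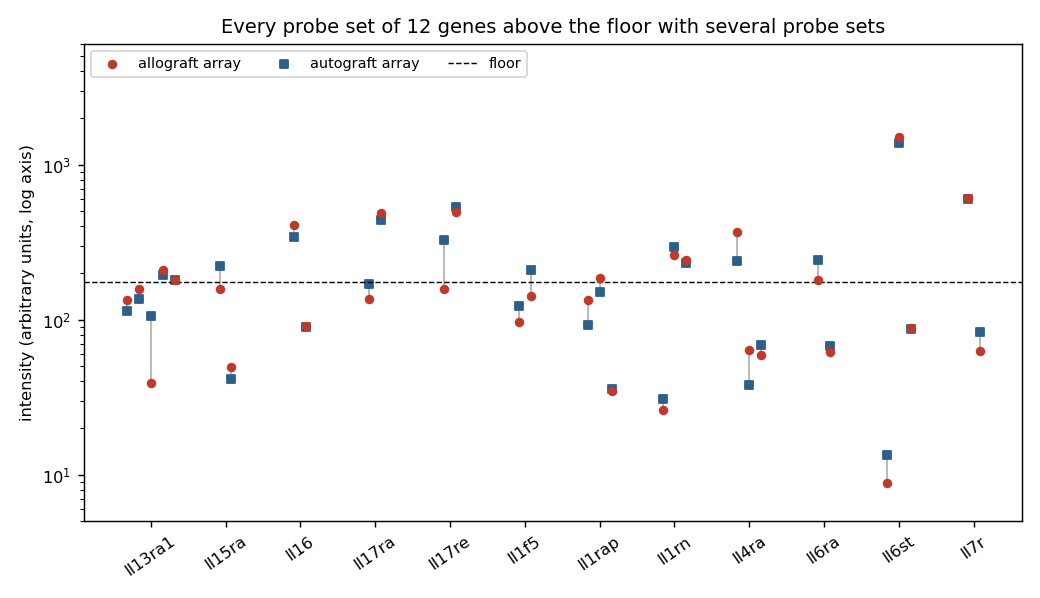
Intensity in arbitrary units on a log axis for every probe set of 12 genes that exceeded the floor in either sample and have several probe sets, with circles for the allograft array, squares for the autograft array and a dashed line at the floor of 175.2. Of the 19 probe sets other than the one used for its gene, 16 lie below the floor on both arrays.

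At a 1.5-fold difference, 3 of the 23 genes were higher in the allograft, Il33, Il18 and Il4ra, against 4% of all genes above the floor, and 0 were lower, against 6.56% of all genes. Il18 and Il33 have 1 probe set each. Markers of cells known to make or sense these proteins are given beside them. Over all genes, 63.2% were above the floor, and 40.4% of those had a ratio above 0. Of 9 macrophage markers 8 were above the floor, 3 with a ratio above 0 and 5 below, with a median of -0.031. The list summed to 22530 in the allograft and 20793 in the autograft. Csf1r alone gave 8219 in the allograft and 5221 in the autograft, by 1 probe set, and its further probe sets stood at -0.026 and -0.59. Of 5 endothelial markers all were above the floor, 1 with a ratio above 0, summing to 2015 in the allograft and 2373 in the autograft. The stromal markers, 6 of 6 above the floor, summed to 28019 in the allograft and 25662 in the autograft, with a median log2 ratio of 0.058. Of 10 neutrophil markers, 9 had a probe set and all 9 had a ratio above 0, with a median of 0.40 and a sum of 46476 in the allograft and 35157 in the autograft. For cells that carry Il7r, 5 of 7 B cell precursor markers were above the floor, 4 with a ratio above 0, and the list summed to 2648 in the allograft and 2197 in the autograft. For cells that depend on Il15, 3 of 5 natural killer markers were above the floor, all with a ratio above 0, summing to 972 in the allograft and 730.2 in the autograft. Mast cell and basophil markers, 6 of 10 above the floor, had 3 ratios above 0 and 3 below. They summed to 2138 in the allograft and 1991 in the autograft, with Mcpt8 alone at 519 in the allograft and 182 in the autograft. Eosinophil markers, 3 of 5 above the floor, summed to 3432 in the allograft and 1879 in the autograft, and skeletal muscle markers, 5 of 5, to 27644 and 20949. None of these markers was at 0. The part of these cell types in the interleukin values was not tested.

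Genes that work with interleukins but carry other names were described by a list of 43 shared chains, related ligands and signalling genes, of which 37 had a probe set. Of these, 30 were above the floor (81.1%, against 63.2% of all genes). Their median log2 ratio was -0.011, and 0.052 after quantile normalization. Of all genes above the floor, 0.868% were higher in the allograft by 2-fold or more and 0.753% were lower by as much. Of the 30 in the list, 14 were above 0, against 40.4% of all genes, 16 were below and none was 2-fold apart. The highest ratio in the list was 0.68, for Csf2rb. This gene read 280.5 in the allograft and 171.7 in the autograft, where its value was set to the floor. Csf2rb2 lay the other way, with 620.6 in the allograft and 806.8 in the autograft (-0.38). The highest with both arrays above the floor were Csf1r, the receptor for Il34 and colony stimulating factor (0.65, 8219 in the allograft and 5221 in the autograft), Tab2, an adaptor of interleukin-1 signalling (0.46), and Irak1, a kinase of the same route (0.42). The further probe sets of Csf1r stood at -0.026 and -0.59 and those of Irak1 between -0.25 and 0.56, whereas the second of Tab2 stood at 0.50. The lowest were the kinase Tyk2 (-0.68, 336 in the allograft and 537.5 in the autograft), the adaptor Myd88 (-0.41, 723 and 958) and the kinase Jak3 (-0.38, 303 and 396). Casp1, the protease that activates Il1b and Il18, read 302 in the allograft and 298 in the autograft (0.018).

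A second list held 20 genes known to respond to interleukins, 2 of which, Il4ra and Il1rn, are interleukin genes themselves. This list was chosen with earlier results of these data known. All 20 had a probe set and 16 were above the floor (80%, against 63.2% of all genes). Of these 16, 10 had a ratio above 0, against 40.4% of all genes, and 6 below. Their median was 0.26, against -0.076 for all genes. This median was 0.039 without marked probe sets and 0.11 with the mean over probe sets, with no floor or with a 25th percentile floor. Of all genes above the floor, 0.868% were higher in the allograft by 2-fold or more and 0.753% were lower by as much. In the list Saa3, an acute phase protein induced by interleukin-1 and interleukin-6, was the only gene 2-fold apart. It read 569 in the allograft and 267 in the autograft (log2 ratio 1.09). Il4ra (0.61) and Cebpb, a transcription factor of the acute phase response (0.53, 1280 and 889), were next. The lowest were Junb (-0.65, 202 in the allograft and 318 in the autograft), Nfkb2 (-0.41, 238 and 316) and Cish, an inhibitor induced by STAT5 (-0.34, 400 and 507). Socs3, an inhibitor induced by interleukin-6, stood at 0.41 by the probe set used, but the further readings for it were -0.58 and -0.68.

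**Figure D4:**
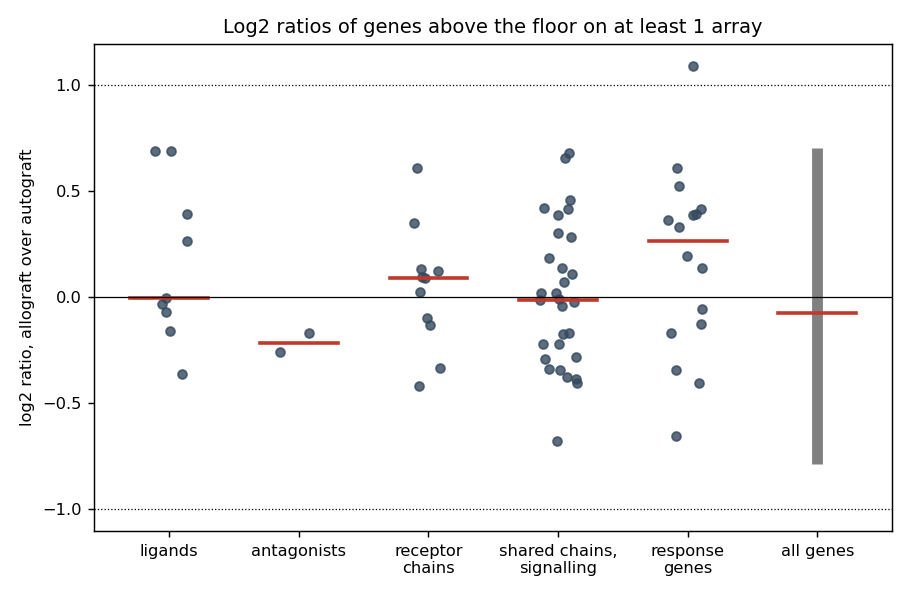
Log2 ratio of allograft over autograft for genes that exceeded the floor in either sample, with a point per gene and a red bar at each median, for ligands, antagonists, receptor chains, shared chains with signalling genes, and response genes. The grey bar shows the central 95% of all genes, -0.79 to 0.70, and dotted lines mark a 2-fold difference, which 1 gene (Saa3) exceeds.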

How the data were processed

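The deposited table holds an intensity on a linear scale for 22690 probe sets on 2 arrays. How the authors made these intensities (software, background correction, scaling) is not given in the sources used here. Trimmed means within 10% of each other led to their use as deposited. Samples were grouped by their titles. The 64 control probe sets were set aside. The platform annotation names 1 gene for 20380 of the rest, several for 691 and none for 1555. The 66 interleukin genes all matched the RefSeq gene table by Entrez identifier. Probe sets for Il4i1 with Il4i1b and for Il22 with Iltifb carry several symbols and were left out. Each gene was read from whichever of its probe sets was brightest on average. The genes, lists and roles were chosen with earlier results of these data known. All interleukin genes above the floor were named, with the 3 highest, the 3 lowest and any 2-fold genes of the other lists. Alternatives covered scaling, floor, probe set, threshold and list summary. The counting step was tested on simulated data, with 4-fold and 8-fold differences placed in genes far above the floor. That test does not cover dim genes or smaller differences such as those described here. The promoter table held windows for 51 of the 66 genes. Python 3.11.15, numpy 2.4.6, pandas 2.3.3, statsmodels 0.14.6 and matplotlib 3.10.9 were used.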

Additional observations from a re-analysis of the deposited data

How the results depend on the processing

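With 1 array per graft type, the intensities near the floor limit what can be read. No paired analysis was possible because each graft type has 1 array. The count of 23 interleukin genes above the floor became 55 if the floor was the 25th percentile, 5 at the 75th and 12 with the dimmest probe set of a gene, and lay between 17 and 23 under the other settings. No gene was 2-fold apart except with the floor at the 25th percentile (1 higher, Il1r1, and 1 lower, Il23a, where 1.37% and 2.25% of all genes were) and with no floor and 16 added (1 higher, Il1a, and 3 lower, Il1rl2, Il23a and Il9r, where 1.90% and 3.45% of all genes were). These genes are dim on both arrays. At 1.5-fold 3 were higher and 0 lower. The ratios of Il18, Il33, Il4ra and Il1b stayed above 0 in every setting that gave them a value (6 of 10 for Il4ra), and 18 of the 23 genes changed sign in none. Genes with 1 probe set, such as Il18, Il33 and Il1b, could only repeat their value under the mean over probe sets or the dimmest. All settings reuse the same 2 arrays, so a kept sign is not a replicate check.

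The ligand median of -0.0058 was 0.36 after quantile normalization, 0.15 and 0.33 with centring on the median or the 75th percentile, -0.14 with the floor at the 25th percentile, 0.39 at the 75th, -0.14 with no floor and 0.16 as a mean, so it has no settled direction. The receptor median of 0.092 became -0.055 with a 25th percentile floor, -0.017 with no floor and -0.13 with the dimmest probe set. The signalling median of -0.011 was 0.052 after quantile normalization and median centring, 0.046 with a 75th percentile floor, 0.066 with centring on the 75th percentile, -0.17 with the dimmest probe set and 0.071 after a lowess fit. The response median of 0.26 stayed above 0, at 0.18 after quantile normalization, 0.11 with the floor at the 25th percentile, 0.36 at the 75th, 0.11 with no floor, 0.11 with the mean over probe sets, 0.14 with the dimmest, 0.039 without marked probe sets and 0.17 as a mean. The lowess fit, and every alternative for the signalling and response medians, were added after the data were seen. The ligand median was taken over the ligand genes above the floor in each setting. Il1f6 and Il1f10 were not above it after quantile normalization or centring on the 75th percentile. In both settings the ligand median was the ratio of Il16, 0.36 and 0.33, which stood at 0.26 in the main setting. The cause of the other shifts was not tested.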
